A study of Mus musculus with 8 samples.

Results

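The data cover 8 genes that control how RNA polymerase II leaves the promoter, namely the BET genes *Brd2* and *Brd3*, the P-TEFb subunit genes *Cdk9*, *Ccnt1* and *Ccnt2*, and the P-TEFb inhibitor genes *Hexim1*, *Hexim2* and *Larp7*. They were chosen by name, and all 8 were found among the 50600 gene names of the table. The samples were JUN TetON ESCs, which are OG2 transgenic mouse embryonic stem cells (genotype c-Jun_TetOn_mESC, a strain of 1/2 129SVJ, 3/8 C57B6 and 1/8 CBA, passage P12) that make JUN when doxycycline is added. They were kept without feeder cells in 2i medium with LIF. All 4 groups received doxycycline at 2 µg/ml, and one of DMSO, PFI-3, BI-9564 or the combination of PFI-3 and BI-9564 (P+B), for 6 h according to the labels, and each group had 2 libraries. PFI-3 binds the bromodomains of BRG1 and its closest relatives, and BI-9564 binds those of BRD7 and BRD9. The legend of the study's RNA-seq gives a longer JUN induction than the labels do, the labels give no compound doses, and every group received doxycycline, so that no uninduced cells stand beside these values.

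Bromodomains are pockets that hold acetylated lysines, such as those on histone tails. BET proteins such as BRD2 and BRD3 carry a pair of them. P-TEFb, a kinase made of CDK9 and a T-type cyclin, acts at promoters, where it releases paused RNA polymerase II into elongation. HEXIM1 or HEXIM2 holds P-TEFb inactive on the 7SK RNA, which LARP7 and the capping enzyme MEPCE keep stable. Drugs that displace BET proteins from chromatin free P-TEFb from 7SK and raise the *Hexim1* transcript, which is therefore used as a readout of BET inhibition. The comparisons below ask how far these transcripts moved with compounds directed at other bromodomains.

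Values are TPM (transcript levels corrected for length and scaled to 1 total) made whole numbers by the authors. Differences were fitted on log2(value + 1) with limma over 10222 genes that had a mean TPM of at least 5, 7 of the 8 genes among them. *Hexim2*, with a mean of 3.9, fell below that limit. There were 7 comparisons, in which the 3 treatments were each set against DMSO, P+B against either compound alone, BI-9564 against PFI-3, and P+B against the sum of the single effects. A gene was called when its Benjamini-Hochberg adjusted p-value was under 0.05 and its fold change at least 1.5, and the adjusted p-value alone is given as a second, wider rule. Nothing in the labels says that the 2 libraries of a group came from separate cultures, so the p-values may measure a technical spread only. Same-numbered libraries of different groups shared part of their deviations. Blocked values, from a fit with a term for the replicate number, are given where they change a result of the 8 genes or of another named gene against DMSO. For the lists, block calls in other comparisons are given by count. These are bulk samples, in which fewer cells of a type and less RNA per cell cannot be told apart.

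The libraries summed to 991574 to 991897 TPM, and their depth is unknown. All 7 stem cell markers were expressed, with *Pou5f1* at 1104 to 1333 TPM, while 0 of 8 fibroblast markers reached the test and *Col1a2*, *Twist2*, *Dcn* and *Lum* were at 0 in all libraries. Against DMSO the log2 values of 7 of 7 stem cell markers lay higher under PFI-3 (median 0.35, beside 0.02 over all tested genes) and 7 of 7 lower under BI-9564 (median −0.33, beside 0.02). In either, 0 of 7 were called, where 0% of all tested genes were called under PFI-3 and 0.108% under BI-9564. Under P+B 5 of 7 lay lower (median −0.13, beside 0.06), and *Tdgf1* was the 1 marker called (−0.93, adjusted p = 0.00916 in limma), where 4% of all tested genes were called. For P+B against PFI-3 *Tdgf1* was the 1 called too (−1.32), where 1.31% were. For BI-9564 against PFI-3 *Tdgf1* was also the 1 called (−1.24, adjusted p = 0.0207), where 0.108% were, and with the replicate block *Nanog*, *Esrrb* and *Zfp42* were called lower as well, where 1.48% were. The block also called *Tdgf1* lower under BI-9564 against DMSO (adjusted p = 0.0205), where 1.53% were called, and *Esrrb* higher under P+B against DMSO (0.74, adjusted p = 0.00486), where 7.02% were. *Jun* stood at 1970 and 2877 TPM under DMSO, 1570 and 2227 under PFI-3, 2071 and 3011 under BI-9564, and 1569 and 2159 under P+B. It was higher in replicate 2 than in replicate 1 of every group. Within each replicate number it was lower under PFI-3 and P+B than under DMSO and BI-9564. The share of tested genes with this order was not counted. The part of the stem cell markers or of *Jun* in the values below was not tested.

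**Figure D1:**
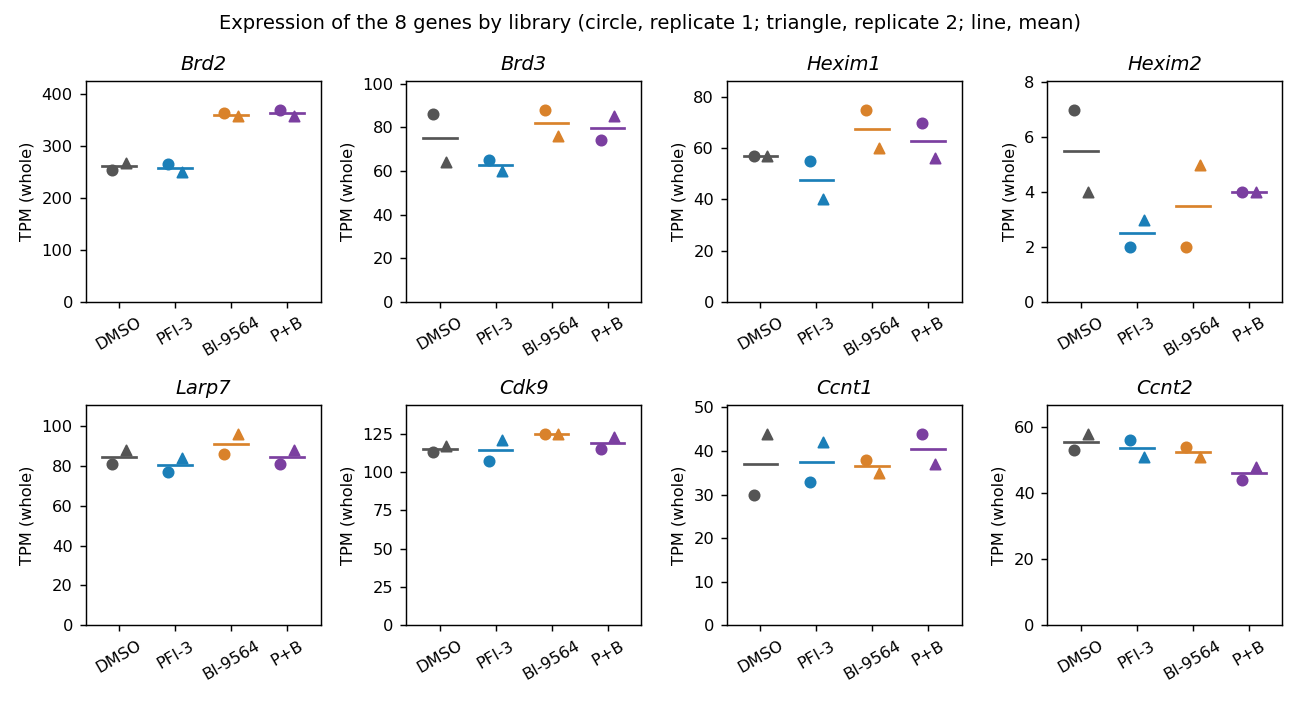
TPM of each of the 8 genes (vertical axes, all starting at 0) in the 4 treatments (horizontal axes), with circles for replicate 1, triangles for replicate 2 and a line at the mean of 2 libraries. Of these 8, *Brd2* is the gene in which all 4 libraries under BI-9564 or P+B (358 to 370 TPM) stand clear of all 4 under DMSO or PFI-3 (250 to 268 TPM). The share of all tested genes with such a separation was not counted.

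Among the BET genes, *Brd2* changed. BRD2 binds acetylated histone H4 and is made in most tissues. Its transcript stood at 254 and 268 TPM under DMSO, 265 and 250 under PFI-3, 363 and 358 under BI-9564, and 370 and 358 under P+B. All 4 libraries that received BI-9564, alone or in P+B, were above all 4 that did not, and neither the DMSO and PFI-3 pair nor the BI-9564 and P+B pair was separated. In the 4 comparisons of 2 libraries with 2 that this covers, 40.5% to 47.5% of tested genes were separated in either direction. The share separated 4 against 4 was not counted. In limma, *Brd2* rose under P+B against DMSO by 0.48 on the log2 scale (SE 0.073, 95% interval 0.31 to 0.65, 1.39-fold, adjusted p = 0.0106). Against PFI-3 it rose under P+B by 0.50 (0.33 to 0.67, 1.41-fold, adjusted p = 0.0225). Both changes stayed under the 1.5-fold limit, so *Brd2* was not called in either comparison, where 4% and 1.31% of all tested genes were called.

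With BI-9564 alone the size was nearly that of P+B, at 0.46 against DMSO (0.30 to 0.63, 1.38-fold) and 0.48 against PFI-3 (0.32 to 0.65, 1.40-fold). The adjusted p-values of limma were 0.0588 and 0.0667, and with the replicate block 0.0215 and 0.0196. At any fold, the block placed 2.78% of all tested genes under an adjusted p of 0.05 for BI-9564 against DMSO and 2.51% for BI-9564 against PFI-3. Same-numbered libraries gave like values, 0.51 and 0.42 for BI-9564 over DMSO and 0.54 and 0.42 for P+B over DMSO. Ordered by p, *Brd2* was number 32 of 10222 genes for BI-9564 against DMSO and number 148 for P+B against DMSO.

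PFI-3 alone left *Brd2* at −0.02 from DMSO (−0.19 to 0.15, adjusted p = 0.986), an interval that runs from 0.88-fold to 1.11-fold. P+B and BI-9564 differed by 0.01 (−0.15 to 0.18), and the interaction, P+B beyond the sum of both single compounds, was 0.03 (−0.20 to 0.27, adjusted p = 1). P+B thus gave no difference in *Brd2* from BI-9564 alone that these libraries could detect, with the doses in both groups unknown.

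Of the alternative settings, no fold limit and an adjusted p of 0.01 reuse the main fit. Both therefore entered the counts below as passing, by construction. The main value for P+B against DMSO, 0.0106 in limma, missed the 0.01 limit. With these settings included, the rise of *Brd2* under P+B over DMSO had an adjusted p under 0.05 in 14 of 20 alternative settings. It was lost without DMSO replicate 1 (0.0861) or 2 (0.0607), without P+B replicate 1 (0.0775) or 2 (0.0655), without limma's trend (0.0592) and in a fit of only the 4 libraries compared (0.1125). For P+B against PFI-3 it held in 9 of 20, and leaving out any 1 of the 8 libraries gave adjusted p-values of 0.0537 to 0.160. The log2 difference itself stayed within 0.39 to 0.56 and 0.45 to 0.54 in these settings.

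*Brd3*, whose protein binds acetylated GATA1 as well as histones, was lower and more variable. Its levels were 86 and 64 TPM under DMSO, 65 and 60 under PFI-3, 88 and 76 under BI-9564, and 74 and 85 under P+B. The DMSO libraries spanned nearly the whole range of the other groups, and the only separations were those of PFI-3 below BI-9564 and below P+B. *Brd3* was 0.38 higher under BI-9564 than under PFI-3 (0.02 to 0.74, unadjusted p = 0.0396, adjusted p = 0.338 in limma), and against DMSO the differences were 0.09 under P+B (−0.27 to 0.46), 0.14 under BI-9564 (−0.22 to 0.50) and −0.25 under PFI-3 (−0.61 to 0.12).

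**Figure D2:**
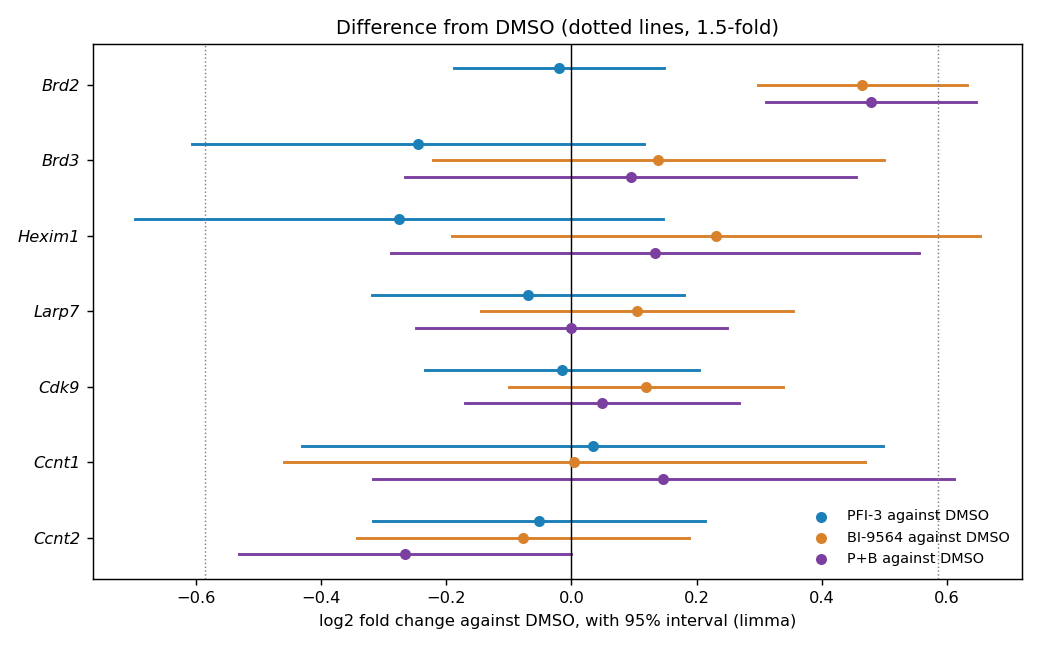
log2 fold change against DMSO (horizontal axis) of the 7 tested genes (vertical axis), with points for the limma estimate, bars for its 95% interval, colours for the 3 treatments and dotted lines at 1.5-fold. The *Brd2* intervals for BI-9564 (0.30 to 0.63) and P+B (0.31 to 0.65) lie clear of 0, whereas all 3 of *Hexim1* cross it.

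*Hexim1*, the readout of BET inhibition, did not pass the test in any of the 7 comparisons. It stood at 57 and 57 TPM under DMSO, 55 and 40 under PFI-3, 75 and 60 under BI-9564, and 70 and 56 under P+B. Both BI-9564 libraries were above both DMSO libraries, both PFI-3 libraries below them, and the P+B libraries fell on either side. Outside DMSO, replicate 2 was lower than replicate 1 in all 3 groups, with log2 differences down to −0.45.

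Against DMSO, *Hexim1* differed by 0.13 under P+B (SE 0.18, −0.29 to 0.56, 1.10-fold, adjusted p = 0.715 in limma), by 0.23 under BI-9564 (−0.19 to 0.65, 1.17-fold, adjusted p = 0.595) and by −0.28 under PFI-3 (−0.70 to 0.15, adjusted p = 0.856). The upper ends of the intervals correspond to 1.47-fold under P+B, 1.57-fold under BI-9564 and 1.11-fold under PFI-3, so rises up to those sizes could not be told from no change. Same-numbered libraries differed by 0.29 and −0.03 for P+B over DMSO and by 0.39 and 0.07 for BI-9564 over DMSO. Without P+B replicate 1 the difference of P+B from DMSO turned to −0.025.

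The widest gap in *Hexim1* was between the 2 single compounds. BI-9564 exceeded PFI-3 by 0.51 (0.09 to 0.93, 1.42-fold, unadjusted p = 0.0241, adjusted p = 0.286), with 0.44 and 0.57 in the same-numbered libraries, and the adjusted p stayed at 0.0778 or above in every alternative, the replicate block included. P+B exceeded PFI-3 by 0.41 (−0.01 to 0.83, adjusted p = 0.315). P+B differed from BI-9564 by −0.10 (−0.52 to 0.32) and from the sum of the single compounds by 0.18 (−0.42 to 0.77).

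*Hexim2*, the close relative of *Hexim1*, was barely expressed, with 7 and 4 TPM in DMSO, 2 and 3 under PFI-3, 2 and 5 under BI-9564, and 4 and 4 under P+B. Its highest value was that of DMSO replicate 1, and PFI-3 lay below DMSO without overlap. In a limma fit that kept genes with a mean of at least 1, its difference was −0.34 under P+B (adjusted p = 0.705), −0.87 under PFI-3 (adjusted p = 0.809) and −0.58 under BI-9564 (adjusted p = 0.590). At this level a step of 1 TPM alone could move the P+B difference anywhere between −0.56 and −0.08, against 0.47 to 0.48 for *Brd2*.

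*Larp7*, whose protein binds the 3′ end of 7SK, stood at 81 and 88 TPM under DMSO, 77 and 84 under PFI-3, 86 and 96 under BI-9564, and 81 and 88 under P+B. The P+B and DMSO libraries had the same pair of values, and the difference was 0 (−0.25 to 0.25). Its differences were 0.10 under BI-9564 (−0.14 to 0.35) and −0.07 under PFI-3 (−0.32 to 0.18). *Mepce* stood at 41 to 56 TPM over the 8 libraries. *Rn7sk*, the 7SK RNA itself, was listed at 0 to 7 in libraries made from oligo-dT enriched mRNA, which lacks most RNAs without a poly(A) tail, and it was not tested. The median over the 6 tested of 8 genes of P-TEFb and 7SK was 0.09 under P+B, −0.05 under PFI-3 and 0.08 under BI-9564, beside 0.06, 0.02 and 0.02 over all tested genes.

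None of the 3 genes of the kinase itself passed the test. Against DMSO, 4% of all tested genes were called under P+B, 0.108% under BI-9564 and 0% under PFI-3. *Cdk9*, the catalytic subunit, measured 113 and 117 TPM under DMSO, 107 and 121 under PFI-3, 125 and 125 under BI-9564, and 115 and 123 under P+B. BI-9564 lay above DMSO without overlap, by 0.12 (−0.10 to 0.34, adjusted p = 0.597), whereas P+B differed by 0.05 (−0.17 to 0.27) and PFI-3 by −0.01 (−0.23 to 0.20). Among the tested genes *Cdk9* had one of the tighter intervals, which for P+B ran from 0.89-fold to 1.20-fold.

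*Ccnt1*, which encodes cyclin T1, varied more between libraries of a group than between groups, with 30 and 44 TPM in DMSO, 33 and 42 under PFI-3, 38 and 35 under BI-9564, and 44 and 37 under P+B. Every pair of groups overlapped. Its differences from DMSO were 0.15 under P+B (−0.32 to 0.61), 0.03 under PFI-3 (−0.43 to 0.50) and 0.00 under BI-9564 (−0.46 to 0.47), and those values changed sign without DMSO replicate 1 (−0.122, −0.235 and −0.264).

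*Ccnt2*, which encodes the alternative partner cyclin T2, had its lowest values under the combination. It measured 53 and 58 TPM under DMSO, 56 and 51 under PFI-3, 54 and 51 under BI-9564, and 44 and 48 under P+B, so that both P+B libraries were below the other 6. How many tested genes were placed in this way was not counted. The difference of P+B from DMSO was −0.27 (−0.53 to −0.00, 0.83-fold, unadjusted p = 0.0499, adjusted p = 0.221 in limma). The single compounds gave −0.05 under PFI-3 (−0.32 to 0.21) and −0.08 under BI-9564 (−0.34 to 0.19), and the difference of P+B from their sum was −0.14 (−0.51 to 0.24).

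In DMSO the levels per length ran from *Brd2* (mean 261 TPM) through *Cdk9* (115), *Larp7* (84.5), *Brd3* (75.0), *Hexim1* (57.0), *Ccnt2* (55.5) and *Ccnt1* (37.0) to *Hexim2* (5.5). In this order *Larp7* and *Brd3* overlapped, as did *Hexim1* and *Ccnt2*, and the other neighbours did not. Under P+B *Brd2* (364) and *Cdk9* (119) again led.

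Over the 8 genes, 0 were called in each of the 7 comparisons. Of all tested genes, 4% were called for P+B against DMSO, 0% for PFI-3 against DMSO, 0.108% for BI-9564 against DMSO, 1.31% for P+B against PFI-3, 0.196% for P+B against BI-9564, 0.108% for BI-9564 against PFI-3 and 0% for the difference from the sum. At any fold the adjusted p alone took in *Brd2* for P+B against DMSO, where 4.89% of tested genes passed, and for P+B against PFI-3, where 1.43% did. It took in 0 of the 7 elsewhere, where 0% passed for PFI-3 against DMSO, 0.117% for BI-9564 against DMSO, 0.196% for P+B against BI-9564, 0.108% for BI-9564 against PFI-3 and 0% for the difference from the sum.

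At an unadjusted p under 0.05 in limma, 2 of the 7 genes (*Brd2* and *Ccnt2*) passed for P+B against DMSO, with a background of 22.6%, and 3 (*Hexim1*, *Brd2* and *Brd3*) for BI-9564 against PFI-3, with 14.2%. *Brd2* was the 1 gene for BI-9564 against DMSO (14.9%) and for P+B against PFI-3 (16.6%). The count was 0 for PFI-3 against DMSO (6.79%), P+B against BI-9564 (7.97%) and the difference from the sum (3.26%). With 2 libraries against 2, an exact permutation test cannot go below p = 0.333, so single genes were not tested that way.

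A separation of the libraries of 2 groups was common in the whole table. For P+B against DMSO 2 of 8 did not overlap (*Brd2* higher, *Ccnt2* lower), where 47.5% of tested genes did not. For BI-9564 against DMSO 3 of 8 lay higher (*Hexim1*, *Brd2* and *Cdk9*), where 41.2% were separated in either direction, and for PFI-3 against DMSO 2 of 8 lay lower (*Hexim1* and *Hexim2*), where 29.3% were. For BI-9564 against PFI-3 5 of 8 lay higher (*Hexim1*, *Brd2*, *Brd3*, *Cdk9* and *Larp7*) and 0 lower, where 20.5% of tested genes lay higher and 19.9% lower. The median log2 difference of the 7 tested genes was 0.09 under P+B, −0.05 under PFI-3 and 0.12 under BI-9564, beside 0.06, 0.02 and 0.02 over all tested genes. All comparisons with DMSO share its 2 libraries.

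**Figure D3:**
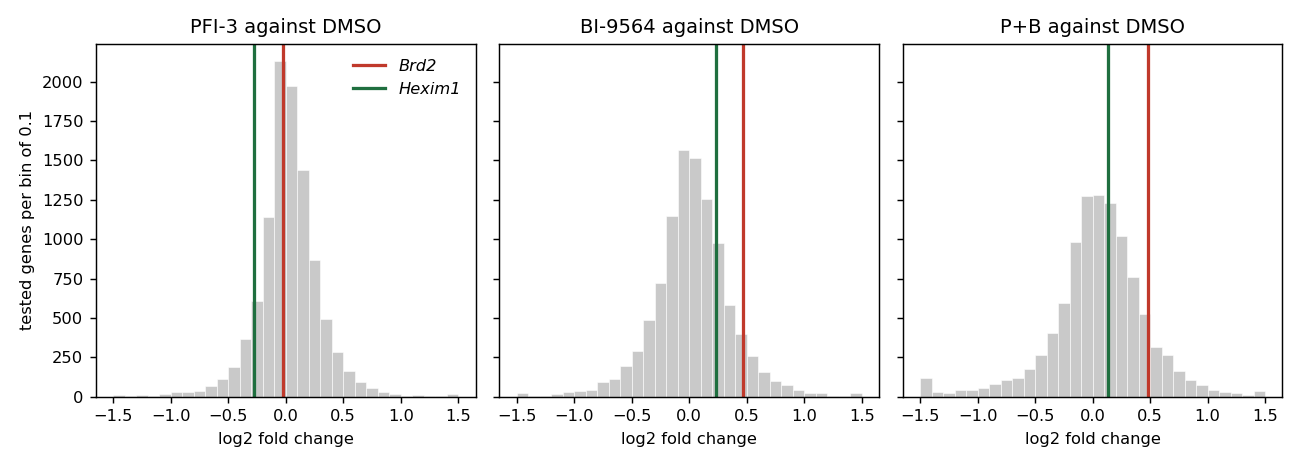
Number of the 10222 tested genes (vertical axis) in bins of 0.1 of the log2 fold change against DMSO (horizontal axis), 1 panel per treatment, with red and green lines at *Brd2* and *Hexim1*. The outermost bins also hold the genes beyond 1.5 in either direction, and *Brd2* moves from −0.02 under PFI-3 to 0.46 and 0.48 under BI-9564 and P+B, where 8.16% and 11.5% of genes lie above it.

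Genes that work with these 8 were read from lists. The super elongation complex, which joins P-TEFb to the AFF and ELL proteins, had 8 of 10 genes tested and 0 called, where 4% of all tested genes were called for P+B against DMSO. With the replicate block 1 of its 8 genes was called for P+B against PFI-3, where 3.43% of all tested genes were. The complex had a median of −0.07 under P+B, −0.16 under PFI-3 and −0.24 under BI-9564, beside 0.06, 0.02 and 0.02 over all tested genes. Its largest differences under P+B were those of *Ell3* (−1.01, adjusted p = 0.103), *Aff1* (−0.54, adjusted p = 0.112) and *Mllt3* (0.37, adjusted p = 0.326). With the replicate block *Aff1* fell with an adjusted p of 0.0159, and the block took 11.6% of all tested genes under 0.05 at any fold in this comparison. *Ell3* measured 10 and 10 TPM under DMSO and 5 and 4 under P+B. *Mllt3* measured 18 and 17 under DMSO, 14 and 11 under PFI-3, 10 and 11 under BI-9564, and 20 and 26 under P+B. Its differences from DMSO under the single compounds were −0.46 (PFI-3, adjusted p = 0.734 in limma) and −0.69 (BI-9564, adjusted p = 0.188).

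For P+B against DMSO, all tested genes had a log2 median of 0.06 and 4% were called, which is the background of the next lists. The 7 pausing factors (NELF, DSIF and GDOWN1 genes) had a log2 median of 0.03 under P+B and 0 called, with *Nelfa* at 0.39 (adjusted p = 0.0982, with the replicate block 0.0462), *Supt4a* at −0.36 (adjusted p = 0.306) and *Nelfb* at 0.35 (adjusted p = 0.137). The 11 elongation factors that travel with RNA polymerase II had a log2 median of 0.07 and 0 called, led by the PAF complex genes *Ctr9* (0.36, adjusted p = 0.0808, with the block 0.0432), *Cdc73* (0.33, adjusted p = 0.227) and *Rtf1* (0.26, adjusted p = 0.307). Among the 9 genes of other transcription CDKs and their cyclins 8 lay higher under P+B, where 57.6% of all tested genes did, with a median of 0.24 and 0 called. Under BI-9564 5 of the 9 lay higher, with a median of 0.29, beside 0.02 over all tested genes. *Ccnk*, the cyclin of CDK12 and CDK13, measured 50 and 61 TPM under DMSO and 79 and 82 under P+B (0.54, adjusted p = 0.0618, with the block 0.0218), followed by *Cdk13* (0.48, adjusted p = 0.125, with the block 0.0372) and *Cdk19* (0.47, adjusted p = 0.353). The 5 genes of BET partner proteins gave a median of 0.04 and 0 called, with *Atad5* at 0.36, the remodeller *Chd4* at −0.30 (adjusted p = 0.0686, with the block 0.0275) and *Nsd3* at 0.21. None of these reached 1.5-fold.

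Transcripts known to respond to BET drugs were read from a pair of lists. Of 7 genes known to rise, *Hexim1* among them, 5 were tested and 0 were called, where 4% of all tested genes were called for P+B against DMSO. The median over these 5 was 0.50 under P+B, 0.10 under PFI-3 and 0.11 under BI-9564, beside 0.06, 0.02 and 0.02 over all tested genes. The histone genes on this list were low, in oligo-dT libraries that lack most RNAs without a poly(A) tail. How many of their transcripts carry such a tail was not tested. *Hist1h2bk* was listed at 0 and 6 under DMSO and 11 and 15 under P+B (2.39, adjusted p = 0.133). With 5 and 5 under PFI-3 and 1 and 3 under BI-9564, its mean over all libraries was 5.75. It thus reached the filter of 5 through P+B, so its P+B difference, which also enters the list median, is not independent of the filter. *Hist1h1c* was listed at 6 and 6 under DMSO, 5 and 4 under PFI-3, 8 and 17 under BI-9564, and 10 and 10 under P+B. Its differences from DMSO were 0.65 under P+B (adjusted p = 0.303 in limma), −0.35 under PFI-3 (adjusted p = 0.920) and 0.86 under BI-9564 (adjusted p = 0.299). *Zcchc24* stood at 4 to 9 TPM (0.50, adjusted p = 0.446), and *Zmynd8*, the remaining tested gene, gave −0.17.

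Of 6 genes known to fall, 4 were tested, and *Myc* and *Fosl1* were called lower under P+B against DMSO, where 4% of all tested genes were called. *Myc* measured 40 and 32 TPM under DMSO, 26 and 25 under PFI-3, 32 and 33 under BI-9564, and 16 and 15 under P+B (−1.16, adjusted p = 0.00546 against DMSO in limma). *Fosl1*, which encodes an AP-1 protein and is also a target of JUN, fell from 47 and 67 to 12 and 9 (−2.33, adjusted p = 0.00296). *Ccnd1* gave −0.84 (adjusted p = 0.0539) and was called lower with the replicate block (adjusted p = 0.0157), which called 7.02% of all tested genes. *Mycn*, the fourth tested gene, lay on the other side at 0.36 (adjusted p = 0.458). The list median was −1.0 under P+B, −0.21 under PFI-3 and −0.40 under BI-9564, beside 0.06, 0.02 and 0.02 over all tested genes. For P+B against PFI-3 *Fosl1* was called as well (−1.53), where 1.31% of all tested genes were. The replicate block called 3 of the 4 for P+B against PFI-3, where 3.43% were, and 2 for P+B against BI-9564, where 0.802% were.

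The list of other bromodomain genes, 32 in number and 31 tested, had a log2 median of 0.06 under P+B, beside 0.06 over all tested genes. *Baz1a*, which encodes the ACF1 remodelling subunit, was the 1 of 31 called for P+B against DMSO, where 4% of all tested genes were, at 46 and 42 TPM under DMSO, 23 and 22 under PFI-3, 30 and 29 under BI-9564, and 17 and 24 under P+B (−1.08, adjusted p = 0.0130 in limma). *Ash1l* (0.44, adjusted p = 0.237) and *Phip* (−0.30, adjusted p = 0.242) came next. With the replicate block 1 of the 31 was called for P+B against PFI-3, where 3.43% of all tested genes were.

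**Figure D4:**
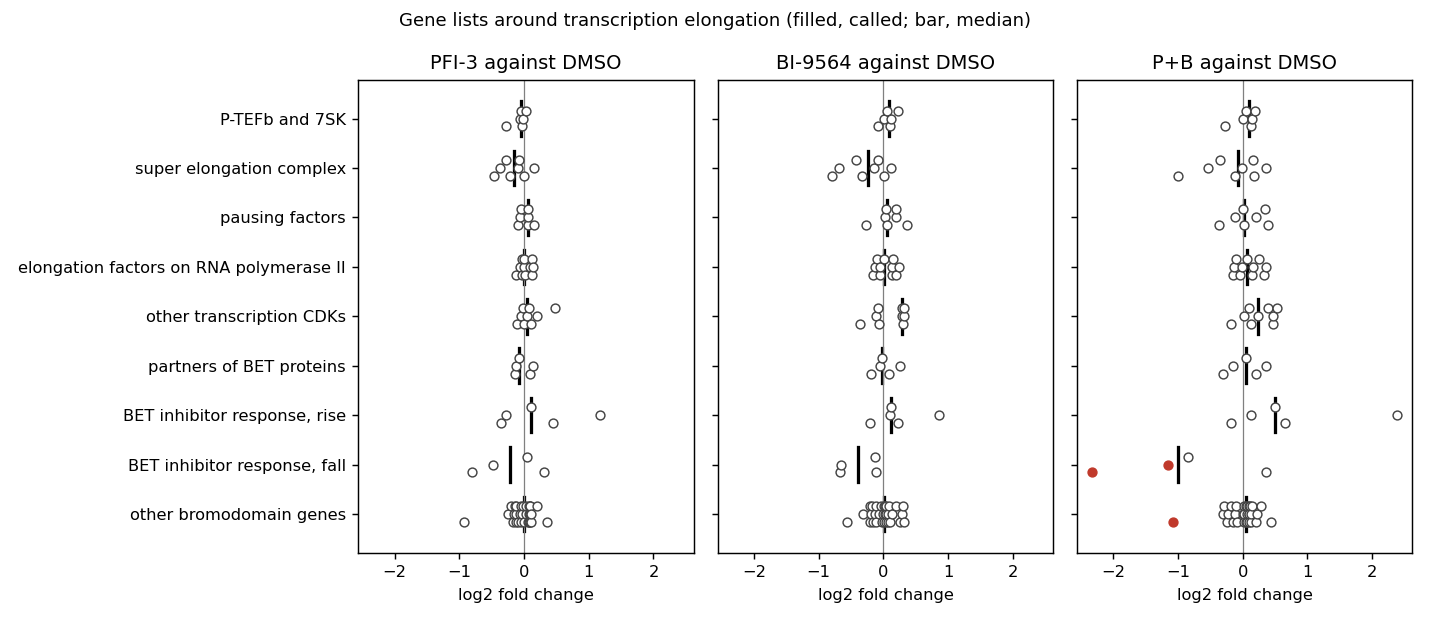
log2 fold change against DMSO (horizontal axes, 1 panel per treatment) of each tested gene in 9 lists (vertical axis), with filled points for called genes and black bars for list medians. Most lists sit around 0, and the 3 filled points are *Fosl1*, *Myc* and *Baz1a* under P+B.

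The genes whose log2 values followed *Hexim1* most closely over the 8 libraries were *Arpc5* (Pearson r = 0.966), *Eci1* (0.947) and *Ubb* (0.938). *Ubb*, a polyubiquitin gene, stood at 1896 and 1835 TPM under DMSO, 1744 and 1612 under PFI-3, 2089 and 1943 under BI-9564, and 2079 and 1744 under P+B, lower in replicate 2 of all 4 groups. Those of *Brd2*, looked up after its values were seen, included *Gpd1l* (0.988) and *H3f3b* (0.986). *H3f3b*, which encodes histone H3.3, measured 612 and 603 TPM under DMSO, 570 and 563 under PFI-3, 863 and 860 under BI-9564, and 870 and 883 under P+B. Such correlations over 8 libraries describe a shared pattern of treatments and replicates, and all values are shares of 1 total per library.

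By the GENCODE annotation of GRCm38 (mm10), all 8 are protein-coding genes. *Hexim1* lies at chr11:103116231-103119725 on the plus strand and *Hexim2* at chr11:103132429-103139876 on the same strand, 12703 bases further on, with 0 annotated genes between them. *Brd3* (chr2:27445579-27507662) and *Cdk9* (chr2:32705784-32713076) are on the minus strand of chromosome 2. *Ccnt1* is at chr15:98538689-98570923 and *Larp7*, which holds the *Mir302* and *Mir367* genes on its opposite strand, at chr3:127536714-127553349, both on the minus strand, and *Ccnt2* at chr1:127774164-127808061 on the plus strand. *Brd2*, at chr17:34112023-34122634 on the minus strand, overlaps *H2-DMa* on the plus strand. Whether reads were counted by strand is not given in the sources used here, and *H2-DMa* itself was listed at 0 to 5 TPM in the 8 libraries.

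RefSeq promoter windows (GRCm38.p6, the 250 bases before the start) were found for 7 of the 8 genes, 9 windows in all, and were searched on both strands for short motifs. The letters of an AP-1 site, TGANTCA, occurred in 0 of these 9 windows and in 6.75% of all 32851 windows. Those of a CRE site, TGACGTCA, occurred in the *Larp7* window alone and in 1.55% of all windows. The NRF1 core GCATGCGC occurred in 2 of the 9 windows, that of *Hexim1* and 1 of the 3 of *Brd2*, and in 2.26% of all windows. The TATA-like TATATAA occurred in that of *Hexim1*, 29 bases before the GENCODE start, and in 3.04% of all windows. The sequences of *Hexim1* (chr11:103116075-103116230, plus strand, up to the GENCODE start) and of the *Brd2* match (chr17:34122608-34122633, minus strand, before the RefSeq start but inside the gene as GENCODE draws it) are shown for these matches, with the NRF1 core, which overlaps a second copy of itself on the other strand in *Brd2*, and TATATAA in capitals.
Hexim1: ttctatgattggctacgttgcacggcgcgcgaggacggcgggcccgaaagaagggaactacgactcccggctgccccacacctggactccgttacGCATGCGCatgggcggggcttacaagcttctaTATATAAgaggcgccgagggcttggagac
Brd2: cacacccttGCGCATGCGCtatgtgt
A match describes letters in a window and is no evidence of binding.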

How the data were processed

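RNA-seq was analysed from 8 libraries of JUN TetON ESCs, 2 per group, grouped by their labels. Libraries were made with a VAHTS mRNA-seq kit from oligo-dT enriched RNA, and the submitters' processing notes name bcl2fastq, Bowtie2 2.2.5, RSEM 1.3.0 and mm10. The authors deposited a score per gene and library, TPM made whole numbers, and whether they rounded or dropped decimals is not stated. Depth, and with it the counting error, cannot be read from TPM. Of 50600 rows, 33075 were at 0 in all libraries and 94 had a repeated name.

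The 8 genes and all lists were chosen with earlier results of these data known. Values were taken as log2(value + 1) and fitted with limma 3.58.1 in R 4.3.3 (lmFit, eBayes with a trend) over all 8 libraries and 10222 genes with a mean of at least 5, with no block and 4 residual degrees of freedom before moderation. P-values, two-sided, were adjusted by Benjamini-Hochberg over all tested genes within each of 7 comparisons. Calls needed an adjusted p under 0.05 together with a 1.5-fold difference. The study's own tool needs raw counts and was not run. Tests were tried on simulated data first.

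Named genes were the 8, the genes of each list called in any comparison, up to 3 per list with the largest absolute difference with P+B, and the 3 most correlated with *Hexim1*. *Rn7sk*, *H2-DMa*, *Mycn*, *Zmynd8*, the stem cell markers that were called and the genes correlated with *Brd2* were named after their values were seen. Replicate differences (2 minus 1) correlated between all 6 pairs of groups (r 0.143 to 0.236), from which the numbers were taken to pair the libraries. Settings tried instead were a block on the replicate number, 0.5 or 5 as pseudocount, no filter or one at a mean of 1 or 20, quantile normalization, median centring, no trend, only the libraries compared, no fold limit, an adjusted p of 0.01 and each library left out in turn. Positions came from GENCODE M21 and promoters from RefSeq. A few genes that these rules would name are not reported here.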

Additional observations from a re-analysis of the deposited data

How the results depend on the processing

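No group had enough libraries for a check of single outlying samples, and depth is unknown, so how far counting error adds to these values was not tested. In the 20 alternatives (19 for the difference of P+B from the sum, which needs all groups) the number of the 8 genes called stayed at 0 in each comparison, except with no fold limit, which gave 1 (*Brd2*) for P+B against DMSO and 1 for P+B against PFI-3. The replicate block moved *Brd2* under an adjusted p of 0.05 for BI-9564 against DMSO and against PFI-3, as did a filter at a mean of at least 20 (adjusted p = 0.0422 and 0.0486), and changed no other call among the 7 tested genes. Over the whole table the block raised the genes called from 409 to 718 for P+B against DMSO, from 11 to 156 for BI-9564 against DMSO, from 134 to 351 for P+B against PFI-3, from 20 to 82 for P+B against BI-9564 and from 11 to 151 for BI-9564 against PFI-3. Every one of these counts fell to 0 in a fit of only the libraries compared. With 1 library left out the lone sample of its group was assumed to vary like the others, and the counts were 68 to 268, 0 to 1, 0 to 51, 0 to 7 and 0 to 1.

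Differences near 0 changed sign, always without passing the test, and the cause was not tested. Quantile normalization gave 0.02 for *Brd2* with PFI-3 and −0.006 for *Ccnt1* with BI-9564 against DMSO. Median centring gave −0.045 for *Cdk9* with P+B, −0.013 for *Ccnt1* with PFI-3, −0.043 for *Ccnt1* with BI-9564, and −0.032 for *Brd2* between P+B and BI-9564. Leaving out 1 library gave these ranges of the log2 difference. *Hexim1* ran from −0.257 to 0.061 for P+B against BI-9564, −0.025 to 0.292 for P+B against DMSO and −0.047 to 0.402 for P+B against the sum of PFI-3 and BI-9564. *Brd2* ran from −0.01 to 0.037 for P+B against BI-9564, −0.009 to 0.075 for P+B against the sum of PFI-3 and BI-9564 and −0.061 to 0.022 for PFI-3 against DMSO. *Brd3* ran from −0.072 to 0.349 for BI-9564 against DMSO and −0.115 to 0.305 for P+B against DMSO. *Cdk9* ran from −0.103 to 0.073 for PFI-3 against DMSO. *Ccnt1* ran from −0.264 to 0.273 for BI-9564 against DMSO, −0.122 to 0.416 for P+B against DMSO and −0.235 to 0.303 for PFI-3 against DMSO. *Ccnt2* ran from −0.118 to 0.014 for PFI-3 against DMSO.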
